A study of Arabidopsis thaliana with 13 samples.

Results

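The transcripts described here encode the cytosolic ribosome's large subunit proteins L3 to L21 of Arabidopsis. They are 60 loci in 21 families, chosen by locus and not by any measured value, out of 37184 genes in the dry seed counts and 37336 in the single-seed counts. All 60 had an entry in both sets of counts. Gene expression was measured by 3′ RNA-seq, in which each read comes from the 3′ end of a transcript.

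Dry and imbibed Col-0 seeds were studied to ask how seed size is linked to the seed transcriptome and to dormancy. In the first experiment, dry after-ripened seeds of 4 seed pools, the biological replicates, were sorted into small, medium and large seeds, which gave 12 libraries, each from many pooled seeds. In the second experiment, small and large seeds were sequenced singly during secondary dormancy induction on wet paper in the dark at 30°C. Seeds were taken on day 3 of the treatment (3d), or after 7 days of it and 24 h of recovery in constant light (7d24h), with 96 seeds of each size at each stage, in 3 libraries of 32 seeds. By the study's methods the recovery was also at a lower temperature, so that 3d and 7d24h differ in duration, light and temperature together. All groups were of the same wild-type genotype, and no mutant or added agent was compared. Each seed holds embryo, endosperm and seed coat, so that fewer cells of a kind and less RNA per cell cannot be told apart in any of the values. Nothing in the labels ties the 3 single-seed libraries of a group to separate plants, and p-values for them measure the spread between libraries of seeds.

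The large subunit of the ribosome, the 60S particle, joins amino acids into protein. In plants each of its proteins is encoded by a small family of near-identical genes, or paralogs, and a ribosome carries the product of only one of them at each position. L5 and L11 hold the 5S ribosomal RNA. L10a forms the mobile L1 stalk beside the tRNA exit site, L12 sits at the base of the stalk that recruits elongation factors, and L10 is among the last proteins to join the subunit in yeast. L3 and L8 reach towards the peptidyl transferase centre, and L4 and L17 line the tunnel through which the new protein leaves. In dry seeds ribosomes are stored, and new ribosomal protein transcripts are made when a seed begins to germinate.

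Promoters of plant ribosomal protein genes are known for 2 short motifs, the telo box (AAACCCTA) and site II elements (TGGGCC or TGGGCT). Both were searched for on either strand in the 250 bases before the annotated gene start, in RefSeq's TAIR10.1 assembly, in which all 60 loci matched by identifier. A site II element was found in 47 of the 60 promoters (78.3%), against 66.4% of those of 146 other cytosolic ribosomal protein genes and 19.2% of those of 27443 protein-coding genes. The telo box was found in 16 of the 60 (26.7%), against 19.2% and 4.49%. Both stood together in 14 (23.3%), against 15.8% and 1.36%. The 2 orientations of site II can lie on the same bases, and a telo box and a site II element can share at most 1 base. A match is a description of the letters and not of a bound site. The promoters of 4 genes are printed as examples, and a link between motifs and levels was not tested. They are those of 2 L10 paralogs that went apart with dry seed size, the L3 gene with the smallest change from 3d to 7d24h, and an L12 gene with one of the steepest rises. Capitals mark the motifs.
SAC52 (L10), chr1:4887864-4888113, plus strand: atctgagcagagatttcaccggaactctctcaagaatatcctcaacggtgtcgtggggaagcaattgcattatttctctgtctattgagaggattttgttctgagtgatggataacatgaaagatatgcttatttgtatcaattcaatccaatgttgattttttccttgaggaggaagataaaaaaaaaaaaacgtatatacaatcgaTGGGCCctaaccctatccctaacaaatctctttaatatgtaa
SAG24 (L10), chr1:24838840-24839089, plus strand: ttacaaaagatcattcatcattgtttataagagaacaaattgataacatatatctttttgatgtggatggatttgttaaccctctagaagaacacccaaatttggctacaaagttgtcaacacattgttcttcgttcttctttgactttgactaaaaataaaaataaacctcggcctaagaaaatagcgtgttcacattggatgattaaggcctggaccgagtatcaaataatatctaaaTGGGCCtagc
RP1 (L3), chr1:16266303-16266552, plus strand: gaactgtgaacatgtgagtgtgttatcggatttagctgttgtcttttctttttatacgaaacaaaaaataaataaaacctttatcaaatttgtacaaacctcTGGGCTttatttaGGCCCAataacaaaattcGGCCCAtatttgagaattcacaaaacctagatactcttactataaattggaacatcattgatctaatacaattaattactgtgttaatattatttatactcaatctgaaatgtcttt
AT5G60670 (L12), chr5:24381600-24381849, minus strand: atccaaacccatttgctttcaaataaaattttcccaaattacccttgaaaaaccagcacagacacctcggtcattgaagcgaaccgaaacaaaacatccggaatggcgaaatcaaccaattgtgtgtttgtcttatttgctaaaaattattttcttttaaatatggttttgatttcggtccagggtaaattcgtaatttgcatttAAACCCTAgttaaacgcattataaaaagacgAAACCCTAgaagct
SAC52 and SAG24 each held 1 site II element, RP1 held 3 and AT5G60670 held 2 telo boxes and no site II element. Of other genes with steep rises, AT5G22440 and AT1G09590 held neither motif. AT1G27400 held 3 site II elements, and AT4G17390 held 3 and 1 telo box.

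Counts on genes came to 554305 to 2079317 in a dry library and to 3962 to 463684 in a single seed (median 100857). Levels are given as CPM, a library's counts relative to its size after scaling by TMM factors, which set the bulk of genes equal between libraries. Each transcript gives 1 tagged end, so that these levels are not divided by gene length. Dry and single-seed counts were scaled separately and no test was made across them. Taking each library's total count as its size instead shifted the median of all genes by 0.40 on the log2 scale from small to large dry seeds, by 0.26 from small to medium and by 0.13 from medium to large, and by 1.02 and 1.07 from 3d to 7d24h in small and large seeds. Changes below are relative to that shift unless said otherwise. Of the members, 56 shared no 55-base stretch of their last 300 transcript bases with any other gene. Reads of AT1G74050 and AT1G74060 (L6), of AT1G57860 and AT1G57660 (L21) and of AT1G09590 and AT1G09690 (L21) could in part be split between the pair, as 5.69% to 8.54% of those stretches were shared. AT1G29965 (L18a) shared 83.3% with a gene outside the list, and its few counts are uncertain.

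The first comparison asked how the members differed between small and large dry seeds. A total of 23 members of the 52 tested (44.2%) had higher levels in large than in small seeds, 1 had a lower level and the other 28 were not called (edgeR's quasi-likelihood test, FDR under 0.05). Of all 8234 genes tested, 6.24% were higher in large and 8.44% in small seeds. The median difference, large over small, was 0.47 on the log2 scale, a 1.38-fold higher level, against 0.01 for all genes, and 47 of the 52 had a positive sign. In 22 members every large library was above every small one, and in 1 every large library was below. The other cytosolic ribosomal proteins were counted beside them, with 43 of 118 tested above small seeds in large ones, 1 below and a median of 0.49. Translation elongation factors had 1 of 10 higher in large seeds and ribosome biogenesis factors 3 of 20, with 2 lower. Among the tested members, 9 reached the minimum level of the low-count filter in fewer than 4 small libraries, and without them 21 of 43 were higher and 1 was lower. The count of 24 called members was 15 with DESeq2 and 14 without the large library of pool 2.

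**Figure D1:**
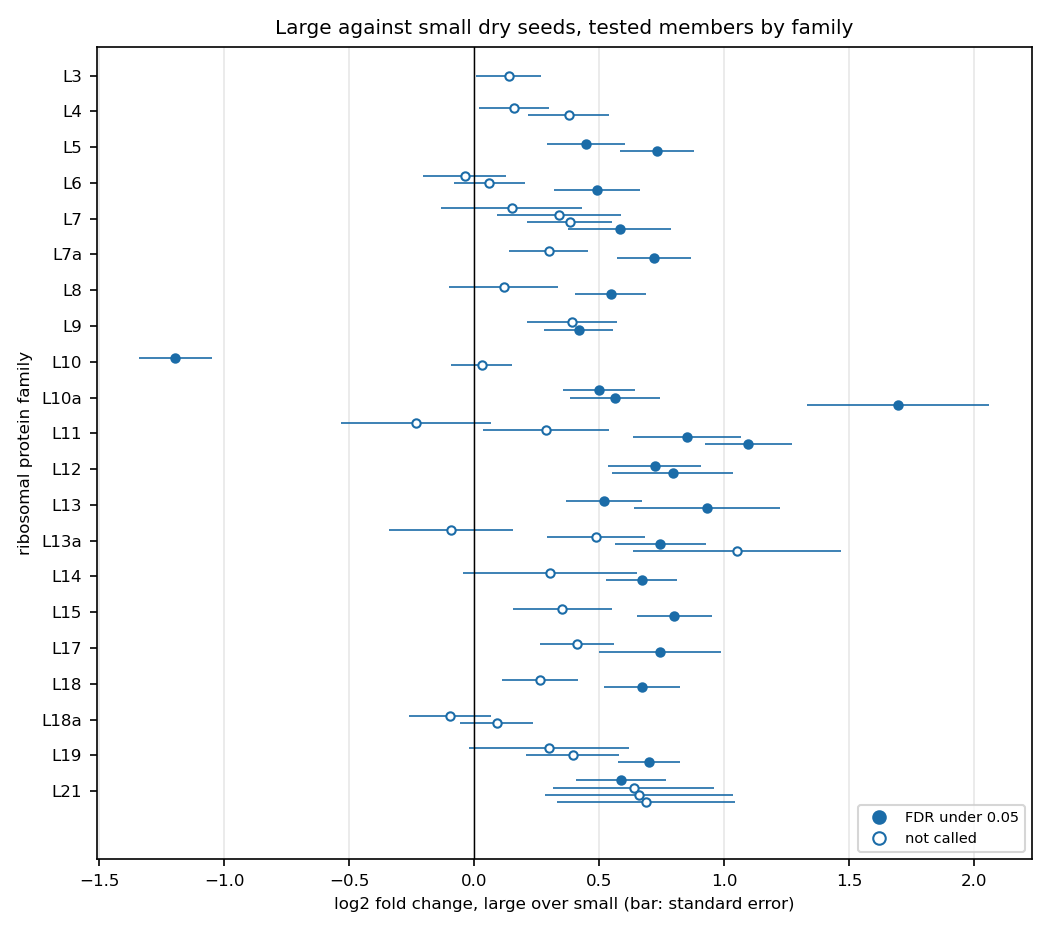
Log2 fold change of each tested member between large and small dry seeds (x axis, with standard errors as bars), by ribosomal protein family (y axis), on the TMM scale. The 52 points have a median of 0.47, and SAG24 in family L10 stands alone at -1.20. With total counts as library size all values shift up by about 0.40.

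In sum, the members took 0.269% to 0.297% of the counts of the 4 small libraries, 0.330% to 0.392% in medium and 0.417% to 0.490% in large libraries. The ranges of the 3 sizes did not overlap. On the TMM scale the summed level was 3073 to 3418 CPM in small, 3301 to 3845 CPM in medium and 3748 to 4223 CPM in large seeds, where the ranges of neighbouring sizes overlapped. The transcripts of seed storage proteins moved the other way. The summed level of 5 storage and oil body markers was 99261 to 147084 CPM of total counts in small, 69938 to 110212 in medium and 62680 to 70751 in large libraries. Chloroplast and mitochondrial genes took 0.735% to 1.67% of the counts in small and 0.370% to 0.612% in large libraries. The part of either in the differences between sizes was not tested. An alternative fit without the organelle genes, which hold few of the counts, called 23 members higher in large seeds and 1 lower. No fit left out the storage transcripts. The leaf markers, 3 genes, summed to 17.5 to 61.4 CPM in the dry libraries.

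Of 6 tested members of L5 and L11, which encode the proteins that hold the 5S RNA, 4 were higher in large seeds. RPL16B (AT4G18730), an L11 gene, had 52.1, 58.2, 34.9 and 33.9 CPM in small seeds of pools 1 to 4, 74.8, 74.3, 59.7 and 54.5 CPM in medium seeds and 86.2, 92.2, 97.2 and 88.3 CPM in large seeds. Large seeds were above small and medium ones in every library, a log2 difference of 1.10 ± 0.17 (SE, n = 4 and 4 libraries; edgeR FDR 1.06e-05) between large and small. Another L11 gene, AT5G45775, which encodes the same protein, was higher by 0.85 ± 0.22 (edgeR FDR 0.00524), with small seeds at 22.3 to 38.1 CPM and large seeds at 27.6 to 58.8 CPM, overlapping ranges. The remaining L11 genes were not called. RPL16A (AT2G42740) was at 10.4 to 17.0 CPM in small and 8.12 to 13.5 CPM in large seeds, a difference of -0.23 ± 0.30 that turns to 0.15 with total counts as size. In the L5 family both genes passed: ATL5 (AT3G25520) with a log2 difference of 0.45 ± 0.16 (edgeR FDR 0.0469) and RPL5B (AT5G39740) with 0.73 ± 0.15 (edgeR FDR 0.000452). RPL5B had 66.2 to 75.9 CPM in the small and 103 to 133 CPM in the large libraries.

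The L10 family went apart from the rest. SAG24 (AT1G66580), annotated as a senescence-associated gene, had 279.7, 308.9, 450.4 and 271.3 CPM in small seeds, 161.0, 226.9, 208.9 and 160.0 CPM in medium seeds and 141.4, 146.6, 130.8 and 165.4 CPM in large seeds. Every small library was above every medium and large one, and pool 3 of the small seeds was the highest. Large seeds were lower than small seeds by 1.20 ± 0.15 on the log2 scale, a level 0.436 times that of small seeds (edgeR FDR 4.53e-08), and by 0.82 (FDR 2.74e-05) with total counts as size. Its paralog SAC52 (AT1G14320), whose mutation suppresses the acaulis5 dwarf, was flat on the TMM scale. SAC52 had 181, 181, 186 and 214 CPM in small, 201, 183, 181 and 184 CPM in medium and 196, 189, 206 and 185 CPM in large seeds, a log2 difference of 0.03 ± 0.12 (edgeR FDR 0.917), which became 0.40 (FDR 0.0129), the shift of all genes, with total counts as size. The third gene, RPL10B (AT1G26910), had 4 counts in all small and 6 in all large libraries and was not tested. Proteins of SAC52 and SAG24 are 94.1% identical. SAG24 took 62.5% ± 6.34 (SD, n = 4) of the family's counts in small seeds, 49.6% in medium and 42.8% ± 3.38 (SD, n = 4) in large seeds, ranges that did not overlap between small and large (two-sided exact permutation of the libraries, p = 0.0286, unadjusted, the lowest that 70 arrangements allow, with 21 families compared). This permutation did not pair libraries of the same seed pool. Permuting within pools allows too few arrangements for a p under 0.05.

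**Figure D2:**
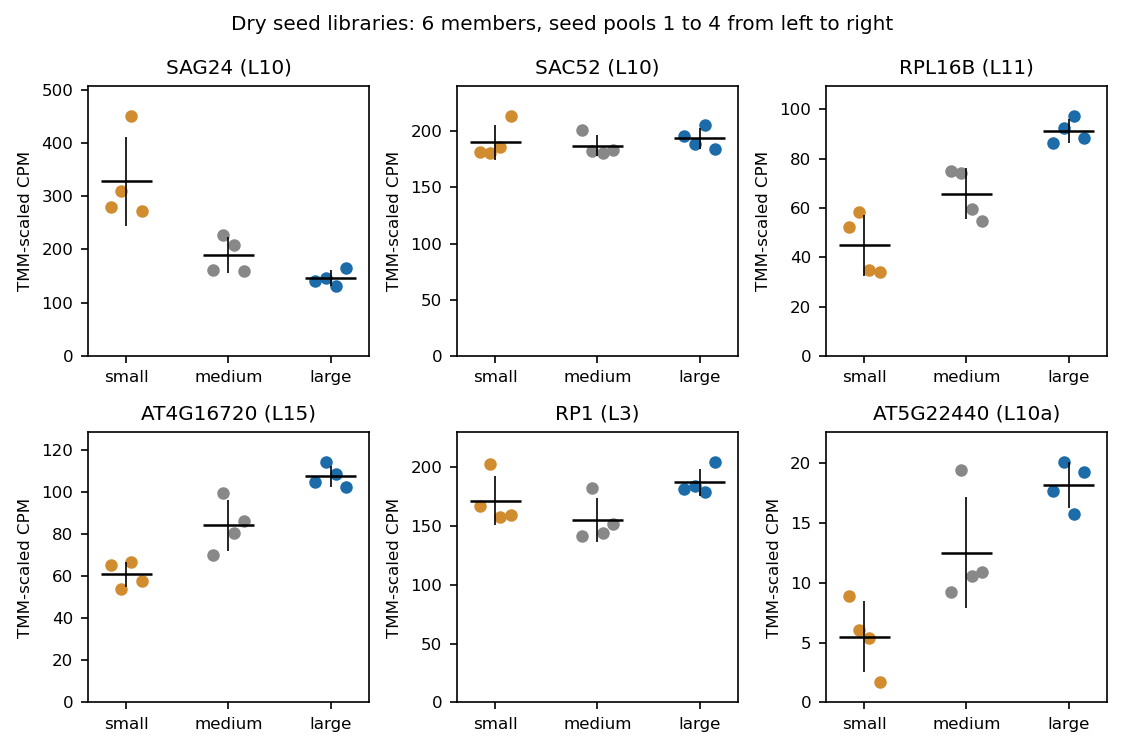
Levels of 6 members in the 12 dry libraries (y axis, TMM-scaled CPM from 0), with seed pools 1 to 4 from left to right in each size, the mean as a line and the SD as a bar. SAG24 is highest in small seeds at 271.3 to 450.4 CPM, SAC52 lies between 181 and 214 CPM in every library, and RPL16B, AT4G16720 and AT5G22440 are highest in large seeds.

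The stalk families L10a and L12 were higher in large seeds in all 5 tested members. PGY1 (AT2G27530), an L10a gene in which mutations alter leaf polarity, had 99.7, 96.3, 113 and 131 CPM in small and 134, 171, 161 and 153 CPM in large seeds. The groups did not overlap, and the log2 difference was 0.50 ± 0.14 (edgeR FDR 0.0133). AT5G22440, the least abundant L10a gene, had 8.93, 6.02, 5.41 and 1.70 CPM in small, 9.20, 19.4, 10.6 and 10.9 CPM in medium and 17.7, 20.1, 15.8 and 19.3 CPM in large seeds. These levels rest on 19 counts in all small and 115 in all large libraries. Large seeds did not overlap small ones, and the difference was 1.70 ± 0.37 (edgeR FDR 0.000991). No small library reached the minimum of the low-count filter, so that the gene was tested for its levels in larger seeds, and without that filter the FDR was 0.000417. In L12, AT2G37190 was at 15.3 to 16.4 CPM in small and 22.1 to 32.8 CPM in large seeds (0.79 ± 0.24, edgeR FDR 0.0215) and AT3G53430 at 28.8 to 33.7 and 43.8 to 59.1 CPM (0.72 ± 0.19, edgeR FDR 0.00619). AT5G60670, the third L12 gene, had 8 counts in all small, 23 in all medium and 40 in all large libraries and was not tested.

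Counted as families at the peptidyl transferase centre and the exit tunnel were L3, L4, L8, L17 and, in addition, L19. Of these, 3 of 10 tested members passed, all higher in large seeds. RP1 (AT1G43170), the main L3 gene, had 167, 203, 158 and 159 CPM in small, 141, 182, 144 and 152 CPM in medium and 181, 184, 179 and 204 CPM in large seeds, overlapping ranges with a difference of 0.14 ± 0.13 (edgeR FDR 0.528). RPL3B (AT1G61580) had 5, 11 and 14 counts in all small, medium and large libraries and was not tested. Neither L4 gene was called, with differences of 0.16 ± 0.14 for AT3G09630 and 0.38 ± 0.16 for AT5G02870. EMB2296 (AT2G18020), an L8 gene needed for embryo development, had 109, 74.2, 99.2 and 95.0 CPM in small and 117, 152, 132 and 153 CPM in large seeds, a difference of 0.55 ± 0.14 (edgeR FDR 0.00675) between groups that did not overlap. The L19 gene emb2386 (AT1G02780), also named for an embryo defect, had 146, 152, 141 and 132 CPM in small, 183, 193, 164 and 188 CPM in medium and 228, 226, 229 and 246 CPM in large seeds. The 3 sizes did not overlap in any library, and large exceeded small by 0.70 ± 0.12 (edgeR FDR 6.86e-05). In L17, AT1G27400 passed (0.74 ± 0.24, edgeR FDR 0.0312) and the more abundant AT1G67430 did not (0.41 ± 0.15, edgeR FDR 0.0547).

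Among the other 11 families, 11 of 29 tested members were higher in large seeds and none was lower on this test. AT4G16720 (L15) had the lowest FDR of them, with 65.5, 54.2, 66.8 and 57.7 CPM in small, 70.2, 99.7, 80.8 and 86.4 CPM in medium and 105, 114, 109 and 102 CPM in large seeds. The 3 sizes were in order in every library, and the large to small difference was 0.80 ± 0.15 (edgeR FDR 0.000162). Its paralog AT4G17390, which encodes a protein 99.5% identical, had a difference of 0.35 ± 0.20 (edgeR FDR 0.244). In L13, BBC1 (AT3G49010) differed by 0.52 ± 0.15 (edgeR FDR 0.0152) and the minor gene AT5G23900, read from 39 counts in small and 140 in large libraries, by 0.93 ± 0.29 (edgeR FDR 0.0239, and 0.044 without the low-count filter, which it passed through larger seeds). The call of AT5G23900 was lost in 5 of the 8 fits that left out a library. Leading genes of L7a (AT3G62870, 0.72 ± 0.15), L14 (AT4G27090, 0.67 ± 0.14), L13a (AT3G24830, 0.74 ± 0.18), L21 (AT1G09690, 0.59 ± 0.18) and L9 (PGY2, AT1G33140, 0.42 ± 0.14) were all higher in large seeds. The leading gene of L18a, AT2G34480, was not called (0.09 ± 0.15), and neither was that of L7, AT2G01250 (0.38 ± 0.17), nor that of L6, AT1G74050 (0.06 ± 0.14). The leading gene of L18, AT5G27850, was also not called, with a difference of 0.26, and its paralog AT3G05590 was at 0.67. In L6 the third gene, AT1G18540, was higher by 0.49 ± 0.17 (edgeR FDR 0.0456), close to the threshold and lost in 6 of the 8 fits without a library, while AT1G74060 was at -0.04 ± 0.17. In L13a the gap between AT4G13170 (1.05 ± 0.41, from 22 counts in small and 86 in large libraries) and AT5G48760 (-0.09 ± 0.25) was wide, yet neither was called.

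Medium seeds lay between. Against small seeds, 2 members were higher and 1 was lower in medium seeds by edgeR, where 1.17% and 2.34% of all genes were. AT2G37190 (L12) was at 24.1 to 35.5 CPM in medium seeds, above all small libraries, with a difference of 0.93 ± 0.25 (edgeR FDR 0.0231), and RPL16B was higher by 0.62 ± 0.18 (edgeR FDR 0.0446) with ranges that overlapped. SAG24 was lower in medium than in small seeds by 0.81 ± 0.14 (edgeR FDR 0.000288), the 1 call of the 3 that stood without the small library of pool 3 and without the medium library of pool 4. Only SAG24 of these was called after thinning every library to the shallowest. Between medium and large seeds no member passed in edgeR or DESeq2, with 15 of 52 at an unadjusted p under 0.05 in edgeR, where 0% and 0.146% of all genes were higher in large and in medium seeds. The medians were 0.22 from small to medium and 0.21 from medium to large.

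The second comparison asked how the members changed from 3d to 7d24h. In small seeds 47 of 48 tested members rose and in large seeds 47 of 48 rose, with medians of 1.99 and 2.12 on the log2 scale, 3.98 and 4.34 times higher (edgeR, FDR under 0.05). Of all 6754 genes tested, 33.1% rose and 32.4% fell in small seeds, and 34.1% rose and 35.9% fell in large seeds, with medians of -0.02 and -0.05. All 118 tested other cytosolic ribosomal proteins rose in both sizes, with medians of 2.00 and 2.11. Of 9 elongation factors 7 rose in each size and 1 fell in small and 2 in large seeds, and of 16 biogenesis factors 12 rose in each size and 1 fell in small seeds. Members summed to 0.531% to 0.630% of the counts at 3d and to 3.11% to 4.37% at 7d24h, 2 ranges far apart. Of the 60 members, 56 had every 7d24h library above every 3d library in both sizes. Storage markers moved the other way, from 146884 to 156703 CPM at 3d to 8613 to 15852 CPM at 7d24h. The sum of 3 leaf markers went from 15.1 to 33.5 CPM to 174 to 336 CPM. Most of that sum was RBCS1A, and CAB3 stayed low, at 0.409 to 2.03 CPM at 3d and 0.502 to 5.37 CPM at 7d24h. The sum of 3 endosperm markers was 82.0 to 268 CPM at 3d and 369 to 965 CPM at 7d24h. Among them EXPA2 went from at most 0.814 CPM to 239 to 803 CPM, and EPR1 from 76.3 to 254.5 CPM to 45.2 to 77.3 CPM. Intergenic reads were 10.3% to 11.8% at 3d and 7.69% to 13.5% at 7d24h. The part of any of these in the rise was not tested. On total counts 48 of 48 rose in both sizes, with medians of 3.03 and 3.23.

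**Figure D3:**
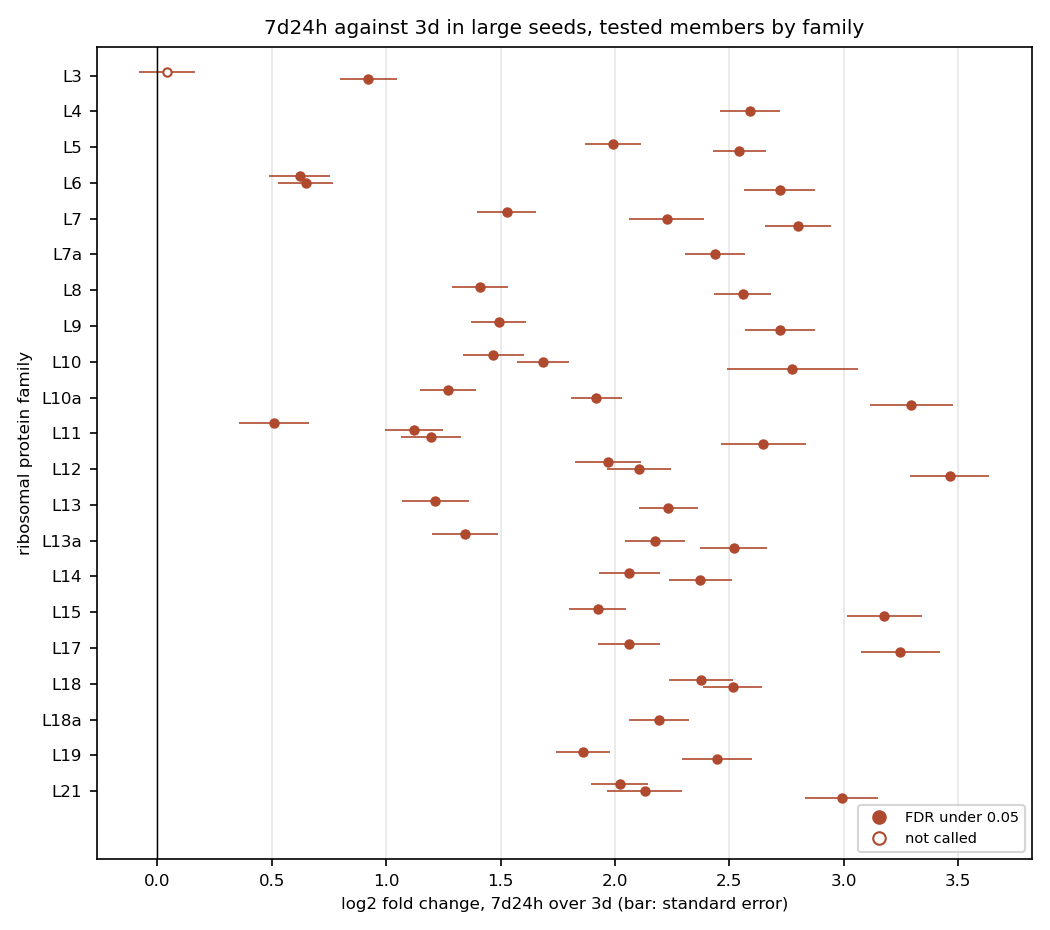
Log2 fold change of each tested member from 3d to 7d24h in large seeds (x axis, with standard errors as bars), by family (y axis), on the TMM scale. Of 48 points 47 passed and lie between 0.51 and 3.46, and RP1 of L3 is at 0.04. On total counts all values shift up by about 1.07, and RP1 passes there and also without the filter on intergenic reads.

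RP1 was the most abundant member at 3d and the only tested member not called in either size. This held for the genes kept by the filter on intergenic reads with TMM factors. Without that filter RP1 rose by 0.54 ± 0.13 (edgeR FDR 0.00233) in large and by 0.45 ± 0.13 (edgeR FDR 0.00823) in small seeds, still the smallest rise among members, and on total counts it was also called. It had 1103, 986 and 814 CPM in the large and 1066, 1049 and 902 CPM in the small libraries at 3d, and 933, 1011 and 1045 CPM in the large and 1042, 1129 and 955 CPM in the small ones at 7d24h. The ranges overlapped, with differences of 0.04 ± 0.12 (edgeR FDR 0.770) in large and 0.05 ± 0.12 (edgeR FDR 0.728) in small seeds. The minor L3 gene RPL3B, whose protein is 86.2% identical to that of RP1, rose by 0.92 ± 0.13 (edgeR FDR 7.61e-06) in large seeds. Other low rises in large seeds were those of RPL16A (0.51 ± 0.15, edgeR FDR 0.00717), AT1G74060 (0.62 ± 0.13, edgeR FDR 0.000592) and AT1G74050 (0.65 ± 0.12, edgeR FDR 0.00017), the last 2 a pair of neighbouring L6 genes.

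The steepest rises were mostly of paralogs that are not the most abundant of their family. AT5G60670 (L12) went from 22.7, 19.1 and 18.1 CPM to 218, 225 and 215 CPM in large seeds and from 18.5, 16.9 and 25.1 CPM to 226, 254 and 170 CPM in small seeds. The stages did not overlap, and the rise was 3.46 ± 0.17 (edgeR FDR 2.3e-10) in large and 3.43 ± 0.17 (edgeR FDR 3.19e-10) in small seeds. AT5G22440 (L10a), the member that differed most between dry seed sizes, went from 19.6, 20.6 and 19.1 CPM to 190, 194 and 199 CPM in large seeds, a rise of 3.30 ± 0.18 (edgeR FDR 3.45e-10). AT1G27400 (L17) rose by 3.25 ± 0.17, AT4G17390 (L15) by 3.18 ± 0.16 and AT1G09590 (L21) by 2.99 ± 0.16 in large seeds. AT2G01250, the leading L7 gene, rose from 106, 95.8 and 82.9 CPM to 657, 632 and 688 CPM, by 2.80 ± 0.14 (edgeR FDR 2.3e-10). In small seeds AT4G10450 (L9) rose by 3.00 ± 0.16. RPL10B had 12 counts over all small libraries at 3d and 656 at 7d24h, and 27 and 733 counts in large seeds. It passed the filter of a mean of 1 count per seed only through 7d24h, so that its rise was fixed by the filter, and in small seeds the same holds for RPL3B. Without these, 45 of 46 members rose in small and 46 of 47 in large seeds.

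By role, all 6 tested members of L5 and L11 rose in large seeds (median 1.59), and all 9 of L10, L10a and L12 (1.97). So did 8 of 9 of the peptidyl transferase and tunnel families, counted with L19 (2.06), and all 24 of the other families (2.21). SAC52 rose by 1.69 ± 0.11 and SAG24 by 1.47 ± 0.13 in large seeds. In the single seeds 8 members were kept out by the filter on genes whose share follows that of intergenic reads, namely AT3G09630 (L4), AT2G44120 (L7), AT2G47610 (L7a), PGY2 (L9), AT4G13170 (L13a), AT3G14600 (L18a), emb2386 (L19) and AT1G57660 (L21). Without this filter 56 of 56 members rose in each size, with medians of 2.40 and 2.61, and these 8 rose by 1.18 for PGY2 to 3.30 for AT1G57660 in large seeds. AT3G51190 (L8), AT3G48960 (L13) and AT2G47570 (L18) had at most 3 counts in any group of libraries, and AT1G29965 (L18a) had 2 and 1 counts in small and large seeds at 3d and 19 and 43 at 7d24h. These 4 were not tested in any comparison.

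The third comparison asked for differences between small and large seeds at each stage. At 3d no member passed in edgeR or DESeq2, with 4 of 48 at an unadjusted p under 0.05 in edgeR, where 0.118% and 0.207% of all genes were higher in large and small seeds. At 7d24h none passed either by both tools, with 1 at an unadjusted p under 0.05 and 0.592% and 0.785% of all genes called in each direction. The median difference, large over small, was -0.06 at 3d and 0.06 at 7d24h, and single values lay between -0.20 and 0.26 at 7d24h, each with its own error (0.12 for RP1, for example). The sign rested on 1 library at each stage. At 3d, without large library 3, the median was 0.04, with 29 of 48 members of positive sign in place of 15. At 7d24h, small library 3, with 13.5% intergenic reads against 7.69% to 9.81% in the other 5 libraries of that stage, had the lowest summed level of the members at that stage, 22733 CPM against 26632 to 29844 CPM. Without it the median was -0.06, with 9 of 48 members of positive sign in place of 36. The change of the size difference from 3d to 7d24h passed for no member in edgeR or DESeq2, with 4 at an unadjusted p under 0.05 in edgeR, where 0.163% and 0.252% of all genes moved toward large and small seeds. SAG24, highest in small seeds when dry, had 171, 143 and 127 CPM in small and 143, 130 and 118 CPM in large seeds at 3d, and 351, 383 and 297 CPM in small and 377, 328 and 377 CPM in large seeds at 7d24h, overlapping at both stages.

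Paralogs of a family were compared by the share that the family's leading gene took of its counts, and a share does not depend on how libraries are scaled. The leading gene was the one with the most counts summed over all libraries of an experiment. In single seeds most of these counts come from 7d24h, so that the choice of gene used the values then compared and leaned to that stage. In dry seeds, L10 alone of 21 families reached the smallest possible p, and the others were at 0.0571 or above by the exact permutation test, which left the seed pools unpaired. From 3d to 7d24h the share of the leading gene moved in 18 of 21 families at an unadjusted p under 0.05 (exact two-sided permutation test within seed size), 15 of them at 0.005, the smallest that 400 arrangements allow. In 14 families the 6 libraries of 1 stage did not overlap the 6 of the other. By summed counts the same gene led in dry and in single seeds in 18 families.

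The widest shift of a leading gene was in L6, where the gene with the most summed counts, AT1G18540, was the least abundant at 3d. AT1G74050, the highest L6 gene by mean scaled level, took 44.5% to 48.2% at 3d and 29.3% to 36.6% at 7d24h. AT1G18540 took 13.7% to 19.5% of the family's counts in the 6 libraries at 3d and 37.9% to 47.3% at 7d24h, a mean of 16.7% ± 2.35 against 43.4% ± 3.68 (SD, n = 6 and 6). Its protein is 91.4% and 90.6% identical to those of AT1G74050 and AT1G74060. In L4, AT3G09630 fell from 69.2% ± 1.73 to 50.1% ± 1.65, level with AT5G02870. In L15, AT4G16720 fell from 72.4% ± 2.45 to 53.8% ± 1.77, in L9 PGY2 from 73.7% ± 0.965 to 57.8% ± 1.47, and in L17 AT1G67430 from 77.0% ± 1.45 to 61.4% ± 2.56 (SD, n = 6 each). In each of these the gene that led at 3d lost share to a less abundant paralog. Shares were taken over all members, also those that the filter on intergenic reads kept out of the tests, such as AT3G09630 and PGY2. In L7, AT2G01250 went the other way, from 36.0% ± 3.12 to 51.1% ± 1.26, as did BBC1 in L13, from 65.1% ± 2.85 to 78.6% ± 0.732. The leading genes of L7a, L12 and L13a did not pass, at exact permutation p of 0.295, 0.185 and 0.305.

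Proteins of the same family were 42.5% to 100% identical over 61 pairs, with a median of 92.2%. The lowest values were those of AT1G80750 with the other L7 proteins, and 6 pairs were identical. One of these was the L9 pair AT1G33120 and PGY2, whose large to small differences in dry seeds were 0.39 ± 0.18, not called, and 0.42 ± 0.14, a gap of 0.03. In L11, AT3G58700, RPL16B and AT5G45775 encode the same protein, and their transcripts rose by 1.20 ± 0.13, 1.12 ± 0.13 and 2.65 ± 0.19 from 3d to 7d24h in large seeds. RPL16A, 1 residue apart from them in 182, rose by 0.51 ± 0.15. In L21, AT1G09590 rose by 2.99 ± 0.16 and AT1G09690, with an identical protein, by 2.02 ± 0.13.

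The single seeds allowed the spread between seeds to be described. At 3d the members took a median of 0.547% of a small seed's counts (0.371% to 1.14%) and 0.545% of a large seed's (0.345% to 0.861%). At 7d24h the median was 2.43% in small seeds (1.78% to 7.33%) and 2.71% in large seeds (1.86% to 7.46%). The CV over 96 seeds was 21.4% and 17.7% in small and large seeds at 3d and 48.7% and 46.6% at 7d24h, where counting error alone gives 4.98%, 5.50%, 1.60% and 1.46%. Seeds at 7d24h were spread unevenly, with a long upper tail: the 10th, 50th and 90th percentiles were 2.11%, 2.43% and 6.43% in small and 2.23%, 2.71% and 6.55% in large seeds. The highest seed of each library lay at 6.64% to 7.46%. The 90th percentile was 6.27%, 6.51% and 3.34% in small libraries 1 to 3 and 6.53%, 6.18% and 6.93% in large libraries 1 to 3, lowest in the small library with 13.5% intergenic reads.

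**Figure D4:**
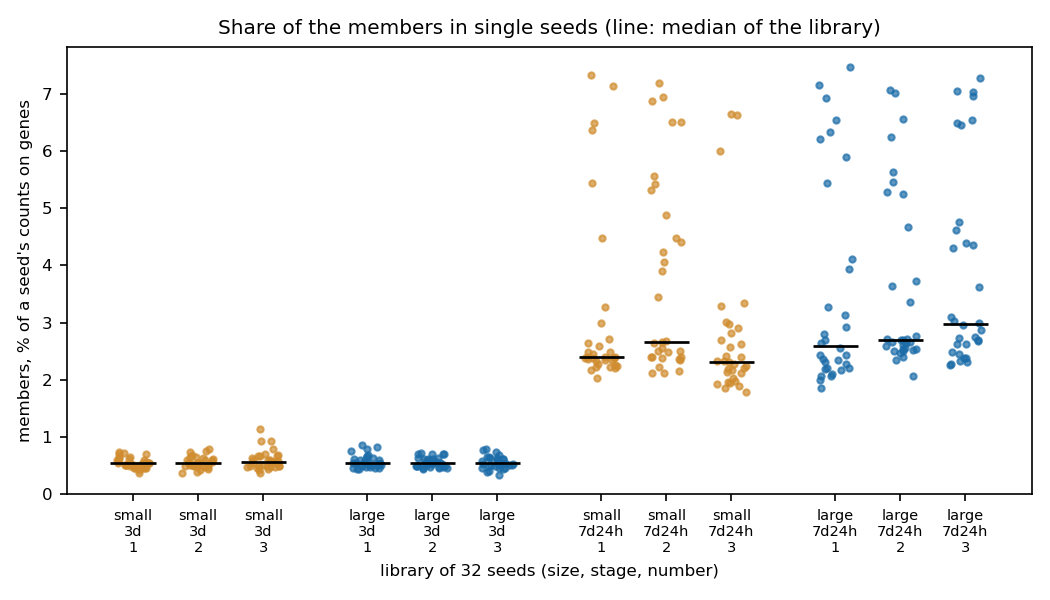
Share of each seed's counts on genes taken by the 60 members together (y axis, %), in the 12 libraries of 32 seeds (x axis), with a point per seed and the library's median as a line. Seeds lie at 0.345% to 1.14% at 3d and at 1.78% to 7.46% at 7d24h, with an upper tail in every 7d24h library.

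Seeds with a high share of large subunit transcripts had little storage protein mRNA. Over the 96 seeds of a group at 7d24h, Spearman's rho of the members' share with the share of the 5 storage markers was -0.81 in small and -0.90 in large seeds. Both are shares of the same seed's counts, which links them, and the values are a description. With the share of intergenic reads rho was -0.48 and -0.71, and with the seed's total count 0.33 and 0.39. Pearson's r was -0.291 and -0.835 with the intergenic share and 0.64 and 0.572 with the total count. Thinning each seed to 20000 counts, with 6 shallower seeds left out, gave CVs of 49.0% and 47.1% at 7d24h.

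Single members differed widely in how much they varied between seeds. After the part due to counting was removed, the CV of single members at 7d24h ran from 14.6% to 97.7% in small and from 12.7% to 79.4% in large seeds, with medians of 58.0% and 50.3%, over 56 members with at least 5 counts per seed on average. The median of all genes with as many counts was 34.7% (5772 genes) and 32.1% (5994 genes). Pooled over libraries, 54 of the 56 had the higher CV in small seeds, but the libraries of the sizes did not separate. The median CV of the members was 65.7%, 47.8% and 72.4% in small libraries 1 to 3 and 52.9%, 51.6% and 49.2% in large libraries 1 to 3, so that small library 2 was below every large one. In 7 members all small libraries were above all large ones, and in 1 all were below. Members are not independent here, as they varied together across seeds. The CVs of single members weight each seed by the square of its total count, which the members' share followed at 7d24h. The CV of their summed share, with all seeds weighted alike, was 45.0% to 50.4% in small and 43.5% to 51.9% in large libraries. The 2 kinds of CV are not directly comparable, and the part of the weighting in differences between sizes or libraries was not tested. At 3d, the median CV was 22.8% over 30 members in small and 15.8% over 32 members in large seeds, against 15.1% and 13.5% for all genes.

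PGY2 was the steadiest member, with CVs of 14.6% in small and 12.7% in large seeds and 11.5% to 15.5% within every library. The filter on intergenic reads had kept PGY2 out of the single-seed tests. Its level ran from 990 to 1450 CPM of total counts between the 10th and 90th percentile of small seeds, and from 1019 to 1518 CPM in large seeds. RPL16B (17.4% and 22.0%) and RPL3B (27.8% and 18.7%, from 7.66 and 9.41 counts per seed) were also low. At the other end, AT1G09590 (L21) had CVs of 97.7% and 79.4%, with 110.6%, 81.8% and 126.7% in the small and 80.5%, 88.7% and 73.5% in the large libraries, overlapping ranges. Its level ran from 105 to 939 CPM of total counts between the 10th and 90th percentile of small seeds and from 145 to 1015 CPM in large seeds, and it was detected in all 96 seeds of both groups. AT1G09690, with the same protein, had CVs of 47.9% and 46.7% and ran from 496 to 1294 CPM and from 480 to 1502 CPM. AT5G22440 (L10a) was at 94.3% and 78.9%. RP1 had CVs of 40.8% and 36.6%, and ran from 937 to 2109 CPM of total counts in small and from 890 to 2133 CPM in large seeds. AT1G80750, the L7 gene with the most distant protein, had 62.3% in small and 39.7% in large seeds.

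**Figure D5:**
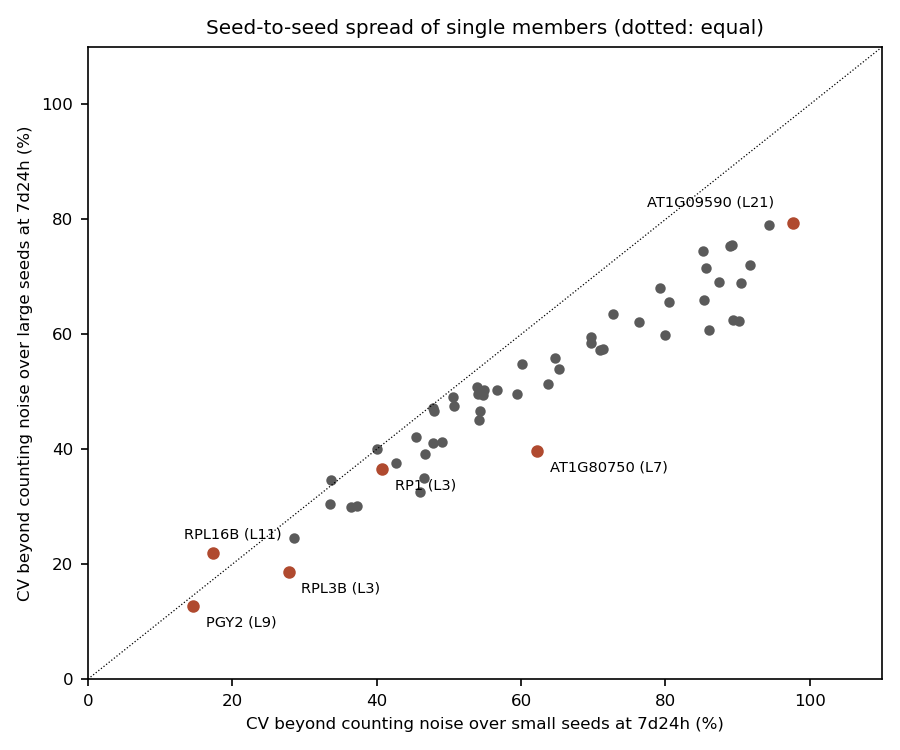
CV of each of 56 members over single seeds at 7d24h after removal of counting noise, in small seeds (x axis, %) and in large seeds (y axis, %), with the line of equal values dotted and 6 members named. PGY2 and RPL16B are lowest, AT1G09590 is highest at 97.7% and 79.4%, and 54 of the 56 lie below the line. These are values pooled over 3 libraries, in which deep seeds weigh more. In small library 2 alone the median member CV of 47.8% was below those of the large libraries.

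Members varied together across seeds. At 7d24h Pearson's r between a member's share of counts and the summed share of the members of all other families had a median of 0.95 in small and 0.96 in large seeds (96 seeds each, 56 members). The points share the seed's depth and library, and the values are descriptions. No such value was computed for genes outside the members, so the co-variation is not shown to be particular to them. RPL16A (0.66 and 0.79), RPL16B (0.67 in small and 0.85 in large seeds) and PGY2 (0.74 and 0.62) followed the rest less closely. Near RPL16A in large seeds were also AT1G80750 (0.857 and 0.777), AT5G48760 (0.85 and 0.782), RPL10B (0.796 and 0.786) and AT3G58700 (0.805 and 0.795). RPL3B had 0.23 and 0.06, from counts too few to read a relation.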

How the data were processed

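Dry seed libraries and single seeds of Col-0 were analysed from the counts of 3′ RNA-seq reads per gene that the authors deposited, without normalization. The submitters' processing notes name STAR 2.7.8a, TAIR10, Seurat and DESeq2. Whether counts were made unique by molecular identifier, or used strand, is not given in the sources used here, and intervals and counting errors cover counting only. Reads outside genes (9.76%) and ambiguous reads (0.256%) of single seeds were left out of library sizes. No column of other samples was present (0 left out). The dry sample is described as 1 multiplexed sample, and its 12 columns were assigned to size and pool by their names.

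Counts of dry libraries, and counts of single seeds summed per library, were tested with edgeR 4.0.16 (R 4.3.3; filterByExpr for dry seeds, TMM, glmQLFit, glmQLFTest, two-sided, Benjamini-Hochberg over all genes tested, FDR threshold 0.05), in one fit for each experiment. The SE was the log2 fold change divided by the square root of F. In single seeds 6754 genes were kept, those averaging 1 count or more over seeds and having a Pearson correlation of their share of counts with the intergenic share of at most 0.3 in every condition. The study words this filter on read numbers. Scripts were tested on simulated data. DESeq2 1.42.0 was an alternative, with upper-quartile factors, other filters, thinning, blocks and leaving out each library. Total counts as library size was added after seeing the data. Python 3.11.15, numpy 2.4.6, pandas 2.3.3, scipy 1.17.1, matplotlib 3.10.9 and Biopython 1.88 were used, with names, promoters and translated proteins from RefSeq (TAIR10.1), which matched 36899 of 37184 and 37051 of 37336 genes. Protein identity counts identical residues over aligned columns. For the CV beyond counting, a gene's expected count in a seed was the library's pooled share times the seed's total count. Squared deviations from it, less the expected count, were summed over seeds and libraries. This sum was divided by the sum of squared expected counts, and the square root was taken. A seed thus weighs by the square of its total count, so that deep seeds count most.

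The genes named were the up to 6 largest called changes in each comparison, the most abundant gene of each family, both extreme paralogs of the 6 families with the widest gaps in the dry small to large and large-seed recovery comparisons, and members not tested. Other members named, for their role, low rise or spread, were chosen after their values were seen. The members and gene lists were chosen with earlier results of these data known. Same-numbered dry libraries come from the same seed pool by design, and the correlation of their deviations was -0.05 to 0.12 (median 0.01, 12 pairs) against a median of -0.01 between pools.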

Additional observations from a re-analysis of the deposited data

Results flagged for a closer look

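A Dixon test was made in 48 groups of 4 dry libraries. They were those of the members named by rule in dry comparisons, and of the summed level of all members in each size. In 4 groups a library stood apart from the other 3, and chance alone gives about 1 in 20. SAC52 (AT1G14320) was at 214 CPM in the small library of pool 4, against 181, 181 and 186 CPM in the other small ones. The same gene was at 201 CPM in the medium library of pool 1, against 181, 183 and 184 CPM. AT5G22440 (L10a) was at 19.4 CPM in the medium library of pool 2, against 9.2, 10.6 and 10.9 CPM. AT5G45775 (L11) was at 38.1 CPM in the small library of pool 2, against 22.3, 23.5 and 23.7 CPM.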

How the results depend on the processing

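The count of 24 members called between small and large dry seeds was 15 with DESeq2, 44 with total counts as library size and 14 to 22 when a library was left out, the lowest without the large library of pool 2. The count of 3 between small and medium seeds was 5 with upper-quartile factors, 1 after thinning, 19 with total counts and 1 to 4 without a library. Between medium and large seeds it was 0 without any library and 1 with total counts. With a library left out, 0 to 0 members were called between sizes at 3d, at 7d24h and for the change of the size difference, 47 to 47 were called from 3d to 7d24h in either size, and the difference in the L10 share stayed at -22.0 to -16.9 percentage points. With the seed pool as a replicate block the dry counts were 22, 3 and 0, and with the library number as a block the single-seed counts were 0, 0, 47, 47 and 0, the same as without it. Library numbers of single seeds share only a number (median correlation of deviations 0.04, against -0.03 between numbers). Thinning seeds moved the CV of large seeds at 3d to 20.4%. Of 577 values of named members under alternatives, 530 kept their direction and side of the threshold, 32 lost and 5 gained a call and 10 changed sign, all in members that were not called between small and large dry seeds. AT2G42740 went to 0.15 with total counts. With a library left out AT1G14320 ran from -0.000243 (without small pool 1) to 0.083, AT5G48760 from -0.311 to 0.135 and AT1G74060 from -0.146 to 0.039. AT5G48760 was positive without the small (0.135) or the large (0.035) library of pool 1 and with total counts (0.292). AT1G74060 went to 0.039 with upper-quartile factors and without the large library of pool 2, 0.249 after thinning, 0.00787 without the small library of pool 4 and 0.338 with total counts. Where a cause is not part of the alternative itself, the cause was not tested. Members with few counts in dry seeds limit what these libraries can show.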
